A study of Mus musculus with 6 samples.

Results

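Mitochondrial ribosomal protein genes were examined in RNA-seq of cultured bone marrow stromal cells (BMSCs) from 6-month-old mice. The members were all genes of the deposited count table whose symbol starts with Mrpl or Mrps followed by a digit and that held at least 10 reads in at least 3 libraries. Of 17469 genes in the table, 78 had such a symbol, and all 78 reached that minimum and were tested among 12701 genes. By name, 49 belong to the large ribosomal subunit (Mrpl) and 29 to the small subunit (Mrps). The 6 libraries were 3 from control mice (Ocn-Cre;Ai9) and 3 from mice that also carry the mutant amyloid precursor transgene (TgAPPswe;Ocn-Cre;Ai9, here APPswe+). Both genotypes carry Ocn-Cre, in which the osteocalcin promoter drives Cre recombinase, together with Ai9, a reporter that makes tdTomato once Cre has removed a stop cassette. In the APPswe+ mice Cre also releases human APP with the Swedish mutation from a CAG promoter. The adherent marrow cells were sorted for tdTomato before RNA extraction, and no treatment was given. The lines were on a C57BL/6 background. The labels do not say whether each library came from its own mouse, so the p-values measure the spread between these libraries, which may be technical.

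Mitochondria keep a ribosome of their own, which makes the few inner-membrane proteins of the respiratory chain and ATP synthase that mitochondrial DNA still encodes. Every protein of this ribosome is encoded in the nucleus, made in the cytosol and imported, and is assembled there on ribosomal RNAs that the mitochondrial genome supplies. Many of its proteins descend from those of bacterial ribosomes, and others were gained during the evolution of mitochondria. The small subunit binds the mRNA and decodes it, and the large subunit joins the amino acids and feeds the new chain through an exit tunnel to the inner membrane.

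Total estimated counts were 19340810 to 19801060 in the control libraries and 21677461 to 22037840 in the APPswe+ libraries, and every member held at least 118 estimated counts in every library. The first principal component separated the genotypes and held 84% of the variance. Mouse App read 281, 275 and 281 FPKM in control 1, 2 and 3, and 325, 332 and 333 FPKM in APPswe+ 1, 2 and 3. The processing notes name only the mouse build mm10. Whether reads of the human APP transgene were counted as mouse App was not tested. FPKM are fragments scaled to transcript length in kilobases and to the mapped fragments of the library, as deposited. Macrophage and other myeloid markers were abundant in the sorted cells, with a summed level over 15 genes of 19651 to 20399 FPKM in control and 16529 to 20283 FPKM in APPswe+ libraries. That sum is led by Lyz2 (5378.91 to 9263.43 FPKM) and covers opposite changes, since 7 of the 15 rose and 5 fell at an edgeR adjusted p of at most 0.05, beside 32.5% and 31.5% of all tested genes (6 higher and 6 lower by library size): the log2 fold change was 2.04 for Aif1 and 1.89 for Adgre1, and -2.38 for Mrc1, -1.49 for Csf1r and -1.26 for Cd68. The 15 stromal and osteoblast-lineage markers summed to 147 to 172 and 114 to 201 FPKM, led by Col1a1, Col1a2 and Cxcl12. Of the 14 tested, 4 rose and 2 fell (4 and 4 by library size). Dcn rose (0.36 to 0.61 FPKM in control and 1.27 to 10.27 FPKM in APPswe+ libraries), as did Lum (0 to 0.03 and 0.63 to 0.87 FPKM), and Col3a1 and Alpl rose by 0.74 and 0.57 on the log2 scale, while Sp7 (-0.78) and Pdgfrb (-0.55) fell. Bglap, which encodes osteocalcin itself, lay between 0 and 1.25 FPKM. Neutrophil markers (8 genes) summed to 12.8 to 53.7 and 18.4 to 51.7 FPKM, and the 7 measured lymphoid markers to 1.3 to 1.9 and 3.72 to 4.16 FPKM. All 15 cell-cycle genes of a fixed list were lower in APPswe+ cells, and their sum was 512 to 569 FPKM in control and 249 to 285 FPKM in APPswe+ libraries. The part of cell type or of cell division in the results that follow was not tested, and in bulk RNA fewer cells of a type cannot be told apart from less RNA per cell.

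Most mitochondrial ribosomal protein mRNAs rose slightly relative to the rest of the transcriptome in APPswe+ cells, and few rose by much. Of the 78 members, 43 rose (55.1%) and 7 fell (8.97%) at a Benjamini-Hochberg adjusted p of at most 0.05 in the quasi-likelihood test of edgeR over all genes. Of all tested genes, 32.5% rose and 31.5% fell by the same rule. The median log2 fold change of the members was 0.25, against -0.02 for all tested genes, and the middle 50% of the members lay between -0.02 and 0.45. With a change of at least 2-fold also required, only Mrpl45 was called higher, beside 8.9% of all tested genes. Without control 1, without APPswe+ 2 or without APPswe+ 3 there were 2 such genes. The number of members called lower was 4 without control 1 and 1 without APPswe+ 3.

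The balance of rises and falls rested on how the libraries were scaled. The counts above were scaled by TMM, a factor that sets the bulk of genes to no change on average and came to 1.07 to 1.08 in control and 0.91 to 0.944 in APPswe+ libraries. Scaled by library size alone, 22 members were higher (28.2%) and 23 lower (29.5%), beside 22.1% and 45.9% of all tested genes. The median of all tested genes moved from -0.02 to -0.23, and that of the members from 0.25 to 0.03. The distance between the members and all genes was 0.26 under both scalings. This is no test of the members, because the change of scaling shifted all genes by nearly the same amount. All 22 members that were higher by library size were among the 43, the 7 that fell were lower under both scalings, and 0 members were called in opposite directions. FPKM are also scaled by library size. In FPKM, 24 members were higher in every APPswe+ library than in every control library, which held for 24% of all tested genes, and 27 were lower in every one, which held for 48.3%. The FPKM of a member can therefore be level where its log2 fold change is positive: Mrps33 read 26.0 ± 1.23 FPKM in control and 25.9 ± 1.04 FPKM in APPswe+ cells (mean ± SD, n = 3 libraries here and throughout), with a log2 fold change of 0.22 (adjusted p = 0.0221). The call of Mrps33 was lost without control 3, without APPswe+ 1 and without APPswe+ 2, at adjusted p of 0.0968, 0.0554 and 0.0586. Log2 fold changes and adjusted p-values below are from edgeR on the TMM scale.

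**Figure D1:**
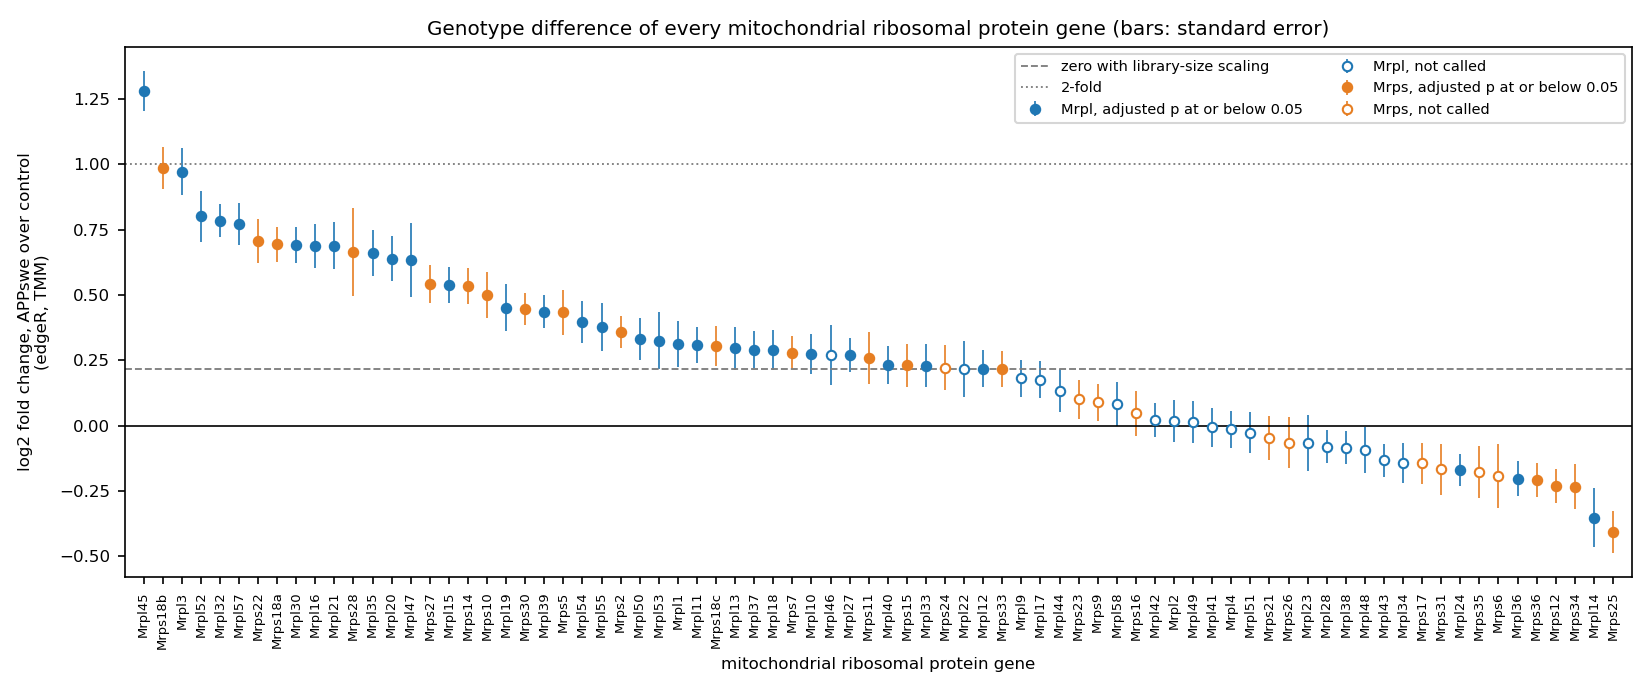
Log2 fold change, APPswe+ over control, of each of the 78 members (edgeR, TMM), with its standard error, in order of size. Filled points passed an adjusted p of 0.05, blue points are Mrpl and orange points Mrps genes, the dotted line marks 2-fold, and the dashed line shows where 0 would lie with library-size scaling. Mrpl45 alone lies past 2-fold, and the values run from 1.28 down to -0.41.

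**Figure D2:**
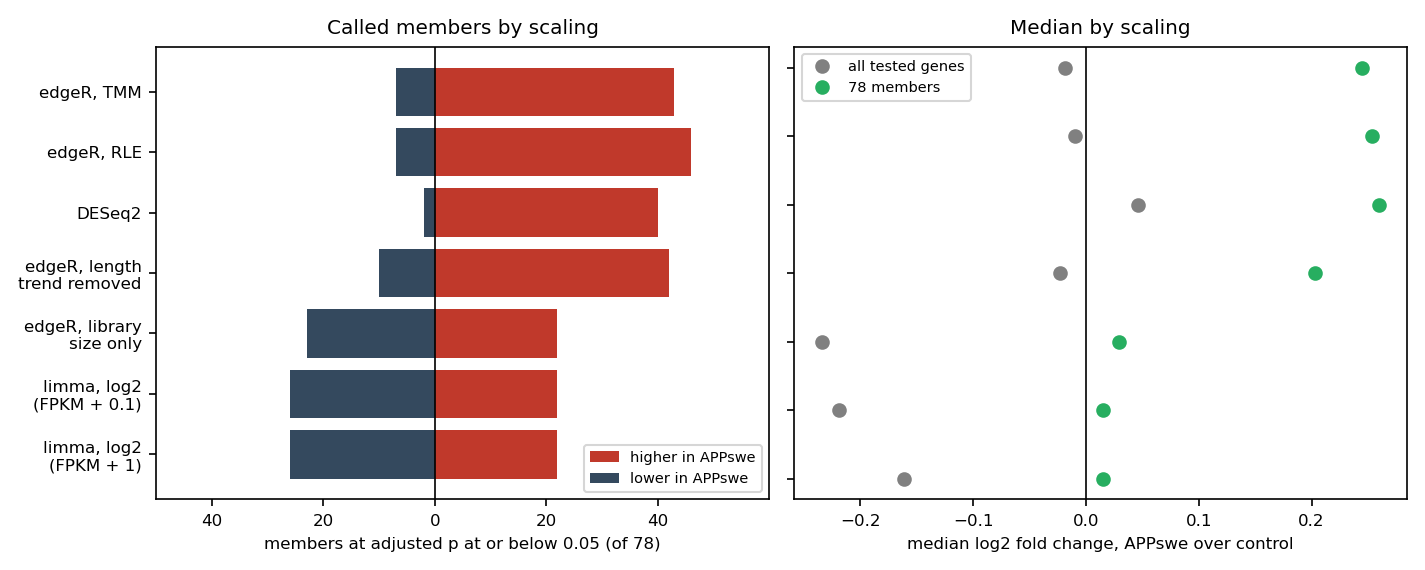
Left, number of members called higher (red) and lower (dark) in APPswe+ cells at an adjusted p of at most 0.05 under 7 ways of scaling and testing. Right, the median log2 fold change of the members (green) and of all tested genes (grey) under the same settings. The calls run from 46 higher and 7 lower (edgeR, RLE; 43 and 7 with TMM) to 22 higher and 26 lower (limma on FPKM), while the members' median lies to the right of that of all genes in every setting shown.

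The largest rise was that of Mrpl45 (chr11:97314923-97329920, plus strand, GRCm38), which encodes a protein of the tunnel exit that holds the ribosome to the inner membrane. Its FPKM were 18.29, 15.77 and 15.6 in control 1, 2 and 3, and 35.04, 34.62 and 32.47 in APPswe+ 1, 2 and 3. The genotypes were far apart, with no overlap and little spread within either. The log2 fold change was 1.28 ± 0.077 (SE), with an adjusted p of 2.28e-06, and it stayed between 1.23 and 1.34 when any 1 library was left out. By library size alone it was 1.06.

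Mrps18b (chr17:35910380-35916440, minus strand) encodes one of the proteins related to bacterial S18, on the platform of the small subunit. It read 24.89, 25.19 and 23.45 FPKM in control and 45, 39.05 and 40.72 FPKM in APPswe+ libraries, a log2 fold change of 0.99 ± 0.079 (adjusted p = 1.1e-05). Mrpl3 (chr9:105053268-105077466, plus strand), a core large-subunit protein with a bacterial counterpart, read 29.92, 23.26 and 25.75 FPKM in control and 44.29, 44.06 and 44.95 FPKM in APPswe+ libraries (log2 fold change 0.97 ± 0.0903, adjusted p = 2.62e-05). Both genes were higher in every APPswe+ library, and the control libraries of Mrpl3 were the more scattered. Both also share exon bases with another annotated gene on the opposite strand, Gm16279 and Gm47106, and Mrpl3 also with Gm38077 on its own strand, which counting by strand would not separate. Whether the counting used strand is not given in the sources used here.

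The next 5 rises were 4 of the large subunit as it is built and 1 of the small subunit. Mrpl52, a protein of the central protuberance and the most abundant member in APPswe+ cells, read 129.0, 109.99 and 100.1 FPKM in control and 178.27, 167.14 and 163.15 FPKM in APPswe+ libraries (log2 fold change 0.80 ± 0.0975, adjusted p = 0.00013). Mrpl32, a large-subunit protein that a protease of the inner membrane trims before it is built in, went from 26.2 ± 0.562 to 38.9 ± 0.987 FPKM (0.78 ± 0.0623, adjusted p = 1.05e-05). Mrpl57, a small protein gained in mitochondria, went from 9.42 ± 0.878 to 13.9 ± 0.172 FPKM (0.77 ± 0.0806, adjusted p = 5.11e-05). Mrps22, a mitochondria-specific protein of the small subunit, went from 9.15 ± 0.4 to 12.9 ± 0.352 FPKM (0.71 ± 0.0858, adjusted p = 0.000127). Mrps18a, another relative of S18, went from 41.0 ± 2.6 to 57.1 ± 0.606 FPKM (0.69 ± 0.0656, adjusted p = 2.88e-05). In none of the 5 did the libraries of the 2 genotypes overlap, beside 24% of all tested genes that were higher in every APPswe+ library. All 8 rises named so far were called under every alternative setting and in every fit that left out 1 library.

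Mrps25 (chr6:92169512-92184023, minus strand), which encodes a mitochondria-specific protein of the small subunit, had the largest fall. It read 6.93, 7.76 and 7.05 FPKM in control and 5.02, 4.75 and 4.34 FPKM in APPswe+ libraries. Every control library was above every APPswe+ library, which in FPKM also held for 48.3% of all tested genes. The log2 fold change was -0.41 ± 0.0804 (adjusted p = 0.00214), and it was -0.62 by library size alone. Mrps25 shares exon bases with Nr2c2 on the opposite strand.

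The other 6 falls were smaller on the log2 scale. In FPKM none of them overlapped between the genotypes, but 48.3% of all tested genes were likewise lower in every APPswe+ library. Mrpl14, the large-subunit protein that an assembly factor covers until the subunits may join, read 46.7, 38.72 and 36.74 FPKM in control and 29.61, 27.98 and 24.64 FPKM in APPswe+ libraries (log2 fold change -0.35 ± 0.113, adjusted p = 0.0232). Mrps12, which sits at the decoding centre, went from 37.2 ± 1.62 to 27 ± 0.408 FPKM (-0.23 ± 0.0658, adjusted p = 0.0137). Mrps34, a mitochondria-specific small-subunit protein, went from 32.1 ± 2.82 to 23.5 ± 0.962 FPKM (-0.23 ± 0.0853, adjusted p = 0.0395). Mrpl36, a very short protein with a bacterial counterpart, went from 34.4 ± 1.36 to 25.7 ± 1.07 FPKM (-0.20 ± 0.0661, adjusted p = 0.025). Mrpl24, which lies near the exit tunnel, went from 55.6 ± 1.52 to 42.4 ± 1.2 FPKM (-0.17 ± 0.0596, adjusted p = 0.0341). Mrps36 went from 44.3 ± 0.407 to 33.0 ± 1.87 FPKM (-0.21 ± 0.0643, adjusted p = 0.0198). Despite its name, Mrps36 encodes a subunit of the 2-oxoglutarate dehydrogenase complex and no ribosomal protein.

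Of the 7 falls, only that of Mrps25 was called in every fit that left out 1 library. Without APPswe+ 3 the adjusted p was 0.0952 for Mrpl14, 0.0628 for Mrps12, 0.144 for Mrps34, 0.095 for Mrps36, 0.11 for Mrpl36 and 0.105 for Mrpl24. Without control 1 it was 0.0631 for Mrpl14, 0.097 for Mrps34 and 0.0537 for Mrpl24, and without control 2 it was 0.0801 for Mrpl36 and 0.102 for Mrpl24. Without APPswe+ 1 it was 0.0519 for Mrps36 and 0.0516 for Mrpl36, and without APPswe+ 2 it was 0.0976 for Mrps34 and 0.123 for Mrpl24. Mrpl14, Mrps34, Mrpl36 and Mrpl24 each share exon bases with a gene on the opposite strand (Tmem63b, Mapk8ip3, Ndufs6 and Rrnad1), as do 28 of the 78 members in all, and Mrps34 also with Nme3 on its own strand.

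**Figure D3:**
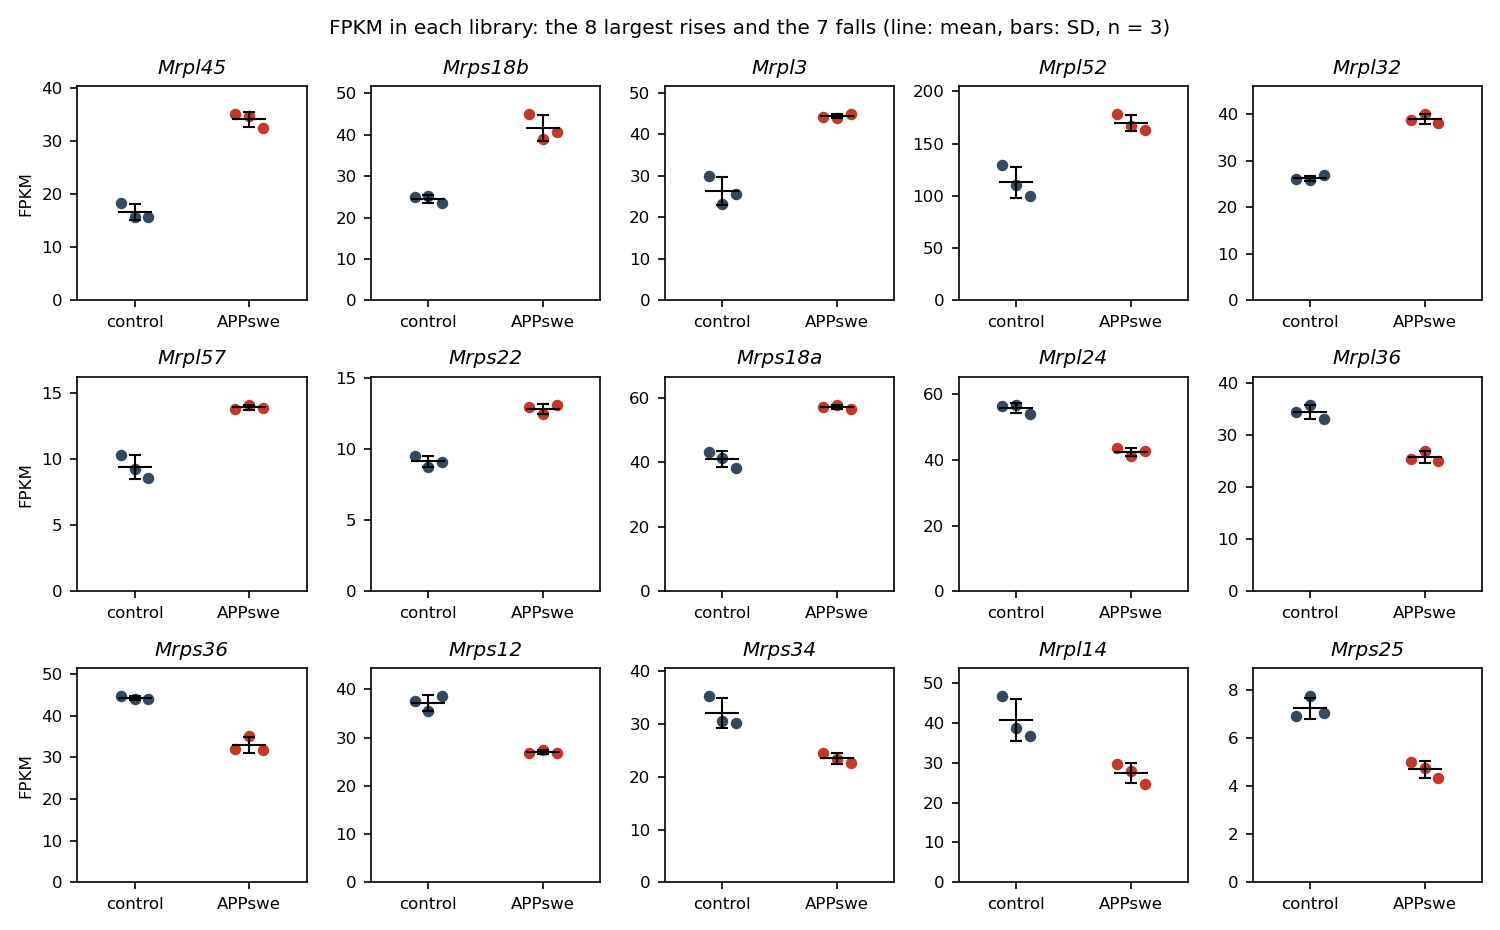
FPKM (vertical axes, from 0) of the 8 members with the largest rises and the 7 members that fell, in each of the 3 control and 3 APPswe+ libraries. Lines are means and bars SDs. In each of the 15 panels the libraries of the 2 genotypes occupy separate ranges, but the genes were chosen by their change in these same libraries. In FPKM, 24% of all tested genes were higher and 48.3% lower in every APPswe+ library than in every control library.

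Large- and small-subunit genes were then compared, beside 32.5% of all tested genes higher and 31.5% lower (22.1% and 45.9% by library size). Of 49 Mrpl genes, 28 rose and 3 fell, with a median log2 fold change of 0.27. Of 29 Mrps genes, 15 rose and 4 fell, with a median of 0.22. By library size alone the split was 13 higher and 13 lower for Mrpl and 9 higher and 10 lower for Mrps genes, with medians of 0.05 and 0.01, and the small-subunit median was -0.002 with limma on FPKM. The difference between the 2 medians was 0.05, and it ranged from 0.002 (without control 1) to 0.065 (without APPswe+ 2) as 1 library was left out. The number of large-subunit falls was 1 without control 1, 1 without control 2 and 0 without APPswe+ 3, and the number of small-subunit falls was 1 without APPswe+ 3.

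The balance of the subunits can be read within a library, where the scaling cancels. The mean log2 CPM (TMM-scaled counts) of the Mrpl genes minus that of the Mrps genes was 0.175, 0.154 and 0.168 in control 1, 2 and 3. It was 0.254, 0.250 and 0.250 in APPswe+ 1, 2 and 3. All 3 APPswe+ libraries were above all 3 control libraries, and the difference of 0.09 between the genotypes compares with SDs of 0.0109 and 0.00205 within them. The offset shrank to 0.04 when the genes at the 2 ends of the range, Mrpl45 and Mrps25, were left out. In summed FPKM the large subunit read 1535, 1444 and 1400 in control and 1570, 1545 and 1468 in APPswe+ libraries, and the small subunit 851, 798 and 767 against 808, 813 and 766. Both sums overlapped between the genotypes. The median FPKM of the large subunit was 25.9, 24.4 and 24.7 in control, against 22, 22.6 and 20.9 for the small. In APPswe+ libraries it was 25.1, 26.9 and 24.6 against 24.5, 26.2 and 23.9, so by this measure the subunits lay closer there. The mean level of either subunit varied from library to library by an SD of about 0.06 within a genotype (0.0611 for Mrpl and 0.0585 for Mrps genes), and the difference between the subunits by 0.00781.

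Gene names and place in the ribosome do not always match. Mrps30 and Mrps18a encode proteins found in the large subunit of the mammalian mitochondrial ribosome, and Mrps36 belongs to neither. With the genes placed by structure, 30 of 51 large-subunit genes rose and 3 fell (median 0.27), and 13 of 26 small-subunit genes rose and 3 fell (median 0.22). The large-subunit falls numbered 1 without control 1, 1 without control 2 and 0 without APPswe+ 3, and the small-subunit falls 1 without APPswe+ 3. The shares over all tested genes were 32.5% and 31.5%, and by library size 22.1% and 45.9%. By library size the large subunit held 15 higher and 13 lower, and the small subunit 7 higher and 9 lower (median 0.004). Placed this way, the large subunit exceeded the small by 0.218, 0.195 and 0.212 in control and by 0.313, 0.321 and 0.322 in APPswe+ libraries. Mrps30 itself went from 17.0 ± 0.628 to 20 ± 0.466 FPKM, with no overlap (log2 fold change 0.45 ± 0.062, adjusted p = 0.000281). All 3 genes related to bacterial S18 rose on the TMM scale, but Mrps18c was not called by library size (log2 fold change 0.09). Mrps18c, the one whose protein is nearest to the bacterial form, went from 44.5 ± 1.98 to 47.3 ± 2.17 FPKM with overlapping libraries (0.30 ± 0.0757, adjusted p = 0.00725), beside 0.99 for Mrps18b and 0.69 for Mrps18a.

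**Figure D4:**
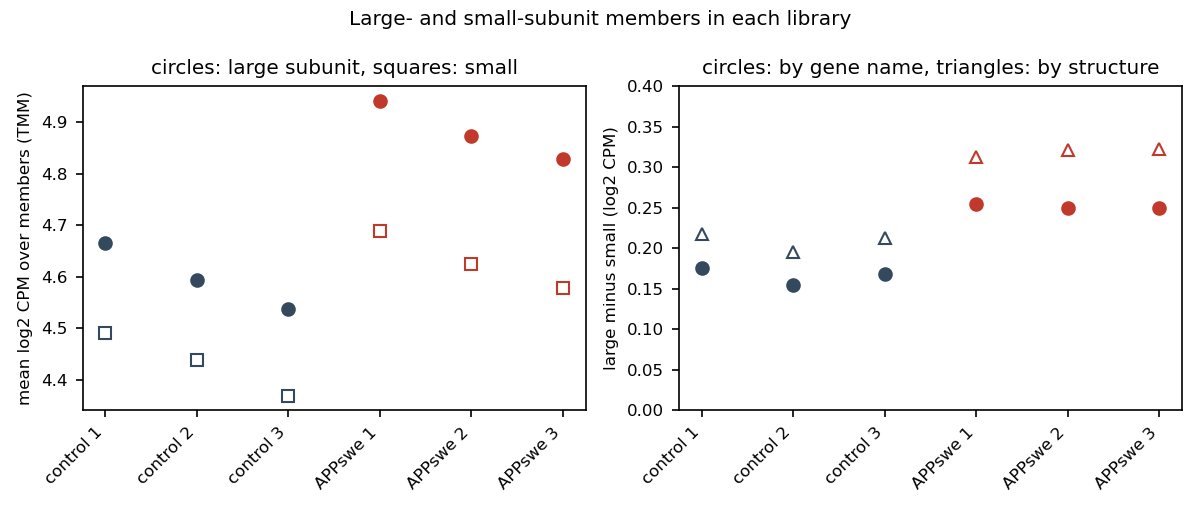
Left, mean log2 CPM (TMM-scaled) of the large-subunit (circles) and small-subunit (squares) genes in each control (dark) and APPswe+ (red) library. Right, large minus small in the same libraries, with genes placed by name (circles) or by structure (triangles). The differences by name lie at 0.154 to 0.175 in control and 0.250 to 0.254 in APPswe+ libraries.

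By origin, 28 of the 46 genes with a bacterial counterpart rose and 4 fell (median log2 fold change 0.27), and 15 of the 31 mitochondria-specific genes rose and 2 fell (median 0.22). By library size the bacterial group held 13 higher and 11 lower (median 0.06) and the mitochondria-specific group 9 higher and 11 lower (median 0.001). All tested genes stood at 32.5% higher and 31.5% lower on the TMM scale, and at 22.1% and 45.9% by library size. The bacterial falls numbered 2 without control 1, 2 without control 2 and 0 without APPswe+ 3, and the mitochondria-specific falls 1 without control 1, without APPswe+ 2 or without APPswe+ 3. Mitochondria-specific genes of the large subunit had a median of 0.27 (11 of 21 rose, 0 fell), and those of the small subunit 0.02 (4 of 10 rose, 2 fell). By library size 6 of the 21 were higher and 6 lower, and 3 of the 10 higher and 5 lower. By region, the 3 genes of the stalk, which recruits translation factors, all rose on the TMM scale, but none was called by library size. These were Mrpl10 (27.1 ± 1.69 and 27.9 ± 2.23 FPKM, log2 fold change 0.27 ± 0.0774, adjusted p = 0.0135), Mrpl11 (8.95 ± 0.553 and 9.55 ± 0.219 FPKM, 0.31 ± 0.0695, adjusted p = 0.00439) and Mrpl12 (49.3 ± 2.01 and 49.3 ± 2.56 FPKM, 0.22 ± 0.0705, adjusted p = 0.0249). All 3 overlapped between the genotypes in FPKM. Mrpl10 was not called without control 3 (adjusted p = 0.0693), nor Mrpl12 without control 2 (0.0559), control 3 (0.107), APPswe+ 1 (0.0658) or APPswe+ 3 (0.0583). In the central protuberance 5 of 8 genes rose and 0 fell, in the head of the small subunit 3 of 4 and 0, on its platform 3 of 5 and 0, around the exit tunnel 2 of 6 and 1, and around the decoding centre and mRNA channel 1 of 3 and 1. Set beside 32.5% and 31.5% of all tested genes, these are small counts, and no region was tested as such. Without APPswe+ 3 there were 4 rises around the exit tunnel and 0 falls there or around the decoding centre, the exit tunnel also had 0 falls without control 1, control 2 or APPswe+ 2, the decoding centre had 2 rises without control 1, and the stalk had 1 rise without control 3. By library size the counts were 1 higher and 2 lower in the central protuberance, 2 and 0 in the head, 1 and 2 on the platform, 2 and 2 around the exit tunnel, and 1 and 1 around the decoding centre and mRNA channel, beside 22.1% and 45.9% of all tested genes.

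The members differed widely in level. In FPKM, which allow genes to be compared per length, the highest member exceeded the lowest by 24.9 to 28.2 times within a control library and by 35.2 to 37.6 times within an APPswe+ library. Mrps21, on the platform of the small subunit, had the highest level in control cells, with 134.01, 113.81 and 108.75 FPKM, and 98.09, 106.26 and 92.21 FPKM in APPswe+ libraries. Its log2 fold change was -0.05 ± 0.0848 (adjusted p = 0.652), although all 3 APPswe+ libraries were lower in FPKM. Mrpl52 took the first place in APPswe+ cells. Mrpl20, which binds ribosomal RNA in the large subunit, was the third most abundant member in APPswe+ cells and on average over all 6 libraries, though Mrpl42 (70.1 ± 3.61 FPKM) and Mrpl23 (64.1 ± 7.38 FPKM) lay above it in control cells. It went from 62.7 ± 3.05 to 83.8 ± 7.82 FPKM (0.64 ± 0.0857, adjusted p = 0.000228). On average over all 6 libraries the lowest members were Mrpl17, Mrpl19 and Mrpl35, while in APPswe+ cells Mrps25 (4.7 FPKM) and Mrps31 (6.32 FPKM) lay below Mrpl35. Mrpl17 read 4.82 ± 0.0586 and 4.68 ± 0.287 FPKM (0.18 ± 0.0696, adjusted p = 0.0528), Mrpl19 read 4.51 ± 0.453 and 5.32 ± 0.39 FPKM with overlapping libraries (0.45 ± 0.0902, adjusted p = 0.00227, and 0.24 and not called by library size), and Mrpl35 read 4.8 ± 0.162 and 6.52 ± 0.54 FPKM without overlap (0.66 ± 0.088, adjusted p = 0.000221). Nearest to no change on the TMM scale were Mrpl41 (log2 fold change -0.007, adjusted p = 0.94), Mrpl49 (0.014, adjusted p = 0.897) and Mrpl4 (-0.015, adjusted p = 0.872). The members had a median coefficient of variation in FPKM of 5.62% in control and 5.27% in APPswe+ libraries. Over all tested genes, which were not matched to the members in level, it was 7.44% and 7.36%.

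For 2 members the length that links the deposited count and FPKM differed between the genotypes by at least 0.1 log2. These genes were chosen after their values were seen. Mrpl27, a large-subunit protein with a bacterial counterpart, held 806.93, 835.07 and 838.45 estimated counts in control and 972.5, 907.15 and 994.59 in APPswe+ libraries, a log2 fold change of 0.27 ± 0.0643 (adjusted p = 0.00579). The APPswe+ libraries were the larger ones, and by library size alone the log2 fold change of the counts was 0.05 and not called. Its FPKM were 43.22, 42.19 and 43.04 in control and 34.8, 32.76 and 32.38 in APPswe+ libraries, lower in every one. The length that links count and FPKM was 986 ± 30.4 bases in control and 1317 ± 86.9 bases in APPswe+ libraries, and this length enters the FPKM alone. Both lengths exceed those of all 4 Mrpl27 transcripts of GENCODE M21 (439 to 756 bases), and the annotation behind the deposited values is not given in the sources used here, so they serve as the factor between the deposited values rather than as the size of a known transcript. Mrps10, in the head of the small subunit, went the other way, with 1306 ± 83.3 bases in control and 1065 ± 15.6 bases in APPswe+ libraries. It rose by 0.50 ± 0.088 on the log2 count scale (adjusted p = 0.00114), and its FPKM went from 20.3 ± 1.3 to 30.3 ± 1.44. A length ratio of at least 0.1 log2 in either direction was found for these 2 of 78 members and for 3.92% of 10138 tested genes with a length. Mrpl27 shares exon bases with Eme1 on the opposite strand.

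**Figure D5:**
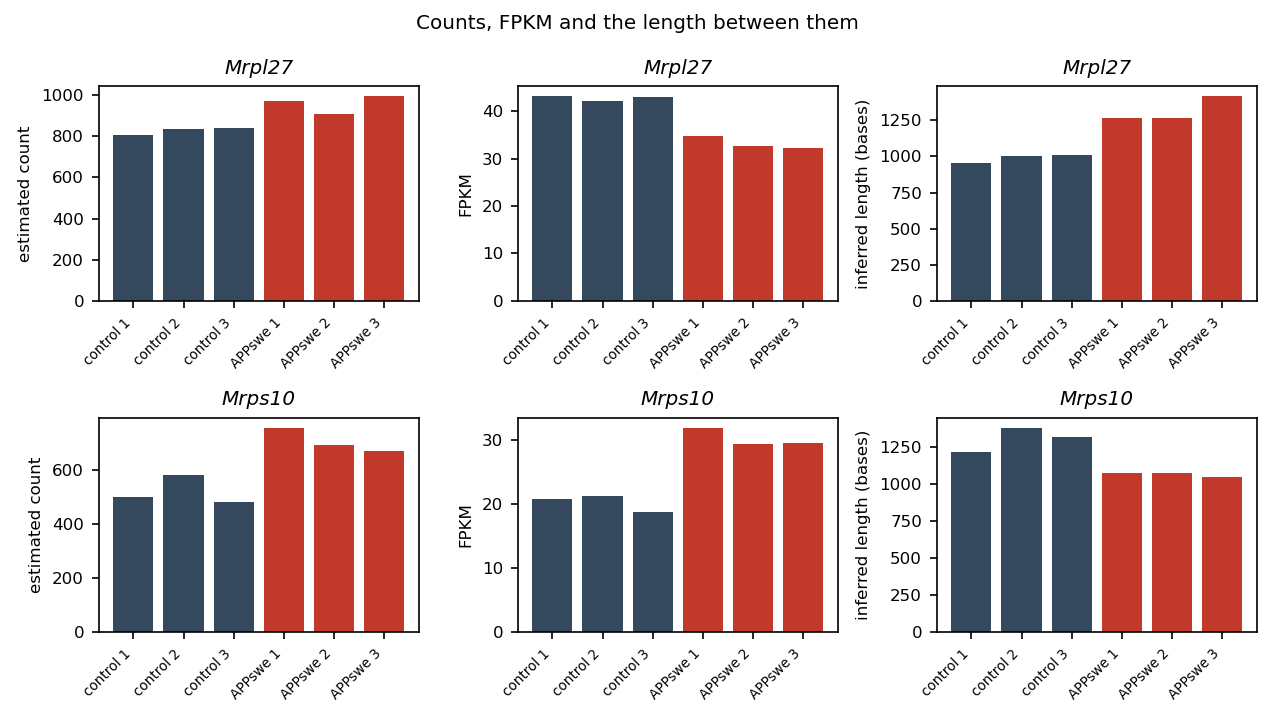
Estimated counts, FPKM and the length inferred from the 2 (bases) for Mrpl27 (top) and Mrps10 (bottom) in each control (dark) and APPswe+ (red) library. Counts of Mrpl27 are higher and its FPKM lower in all 3 APPswe+ libraries, while the inferred lengths of the 2 genes move in opposite directions.

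Other genes of mitochondrial translation were taken from fixed lists. The 5 ribosomal proteins that do not carry an Mrp name included 2 rises and 0 falls, and by library size 1 was higher and 1 lower. All tested genes stood at 32.5% higher and 31.5% lower, and by library size at 22.1% and 45.9%. Chchd1, of the small subunit, read 36.88, 35.0 and 36.89 FPKM in control and 59.46, 57.36 and 56.39 FPKM in APPswe+ libraries, well apart (log2 fold change 0.89 ± 0.0671, adjusted p = 7.94e-06). Dap3, also of the small subunit, read 22.1 ± 1.28 and 21.3 ± 0.454 FPKM (0.18 ± 0.0682, adjusted p = 0.0444). By library size its log2 fold change was -0.034, and leaving out any library but control 1 gave adjusted p of 0.0531 to 0.176. The other 3 were not called (Ptcd3 0.07, Aurkaip1 -0.07 and Gadd45gip1 0.15 on the log2 scale).

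The genes that build and serve the ribosome were counted in the same way. Beside them, 32.5% of all tested genes were higher and 31.5% lower, and by library size 22.1% and 45.9%. Of 25 assembly factors, 4 rose (16%) and 7 fell (28%), with a median of 0.00, and by library size 1 was higher and 10 lower. The rRNA methyltransferase Mrm3 went from 3.27 ± 0.503 to 4.68 ± 0.259 FPKM (log2 fold change 0.73 ± 0.153, adjusted p = 0.00287). Mettl17, a factor that small-subunit assembly needs, read 20.66, 15.65 and 17.65 FPKM in control and 7.61, 7.26 and 6.65 FPKM in APPswe+ libraries (-1.11 ± 0.116, adjusted p = 5.17e-05). It was the only gene of the list past 2-fold.

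Of 11 translation factors, 3 rose (27.3%) and 2 fell (18.2%), and by library size 3 were higher and 5 lower. There was 1 fall without control 1, without APPswe+ 2 or without APPswe+ 3. Taco1, a translational activator of cytochrome c oxidase subunit I, went from 4.3 ± 0.58 to 6.21 ± 0.574 FPKM (log2 fold change 0.77 ± 0.145, adjusted p = 0.00166), and the release factor gene Mtrf1l from 2.99 ± 0.178 to 2.13 ± 0.0404 FPKM (-0.34 ± 0.112, adjusted p = 0.0279). Mtrf1l was not called without control 1 (0.064), control 2 (0.0552), APPswe+ 2 (0.0663) or APPswe+ 3 (0.0914). Of 17 mitochondrial aminoacyl-tRNA synthetases, which load tRNAs with amino acids, 3 rose (17.6%) and 5 fell (29.4%), with a median of -0.17, and by library size 2 were higher and 10 lower (median -0.38). The falls numbered 2 without control 1 or APPswe+ 1, and 3 without control 2 or APPswe+ 3, and the rises 2 without control 3 or APPswe+ 1. Fars2, for phenylalanine, went from 7.53 ± 1.69 to 10 ± 0.858 FPKM (0.61 ± 0.144, adjusted p = 0.00537), and Sars2, for serine, from 9.72 ± 1.54 to 5.37 ± 0.406 FPKM (-0.62 ± 0.0959, adjusted p = 0.00052).

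Of 8 genes of mitochondrial transcription and mRNA care, 3 rose (37.5%) and 1 fell (12.5%), but by library size 1 was higher and 4 lower. Among all tested genes 32.5% rose and 31.5% fell, and by library size 22.1% were higher and 45.9% lower. Slirp, an RNA-binding protein that stabilises mitochondrial mRNAs, read 57.48, 50.2 and 51.49 FPKM in control and 93.97, 99.97 and 92.68 FPKM in APPswe+ libraries (log2 fold change 1.06 ± 0.0745, adjusted p = 5.19e-06). The other rises, named after their values were seen, were Tefm, an elongation factor of mitochondrial transcription (0.42, adjusted p = 0.0481), and Mtpap, which adds poly(A) tails to mitochondrial mRNAs (0.25, adjusted p = 0.0227). Tefm was not called without control 1 (0.0919), control 2 (0.137), APPswe+ 1 (0.152) or APPswe+ 3 (0.0745), nor Mtpap without control 2 (0.0637), control 3 (0.0806) or APPswe+ 1 (0.0579). Oxa1l, the insertase that takes up the chain leaving the tunnel, read 42.59, 40.34 and 40.03 FPKM in control and 24.54, 26.04 and 24.56 FPKM in APPswe+ libraries (-0.50 ± 0.0554, adjusted p = 7.68e-05). Mrpl45 and Oxa1l, whose proteins meet at the tunnel exit, thus differed in opposite directions, both without overlap. Transcripts encoded by mitochondrial DNA were not analysed here.

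The regulators of nuclear genes for mitochondrial proteins included 4 rises and 1 fall among 8 tested (2 falls without control 1), and by library size 2 were higher and 2 lower. The shares over all tested genes were 32.5% higher and 31.5% lower, and by library size 22.1% and 45.9%. Esrra, a nuclear receptor that acts on genes of energy metabolism, read 27.26, 25.79 and 27.35 FPKM in control and 40.95, 40.5 and 40.38 FPKM in APPswe+ libraries (log2 fold change 0.83 ± 0.0534, adjusted p = 3.22e-06). Pprc1, a coactivator of the PGC-1 family, went from 15.9 ± 0.441 to 22.6 ± 1.32 FPKM (0.73 ± 0.0578, adjusted p = 1.05e-05). Nrf1, a transcription factor for many mitochondrial protein genes, went from 9.28 ± 0.422 to 7.63 ± 0.726 FPKM (-0.27 ± 0.0756, adjusted p = 0.0135). Yy1 (0.29 ± 0.0612, adjusted p = 0.00315) and Gabpb1 (0.18 ± 0.0647, adjusted p = 0.0361), a subunit of the ETS factor GABP, were called on the TMM scale, and by library size they stood at 0.07 and -0.03. Gabpb1 was not called without control 2 (0.115), control 3 (0.096), APPswe+ 1 (0.0963) or APPswe+ 3 (0.0991). Gabpa (-0.09), Myc (0.11) and Ppargc1b (-0.20) were not called, and Ppargc1a lay at 0 to 0.03 FPKM and was not tested.

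For scale, beside 32.5% of all tested genes higher and 31.5% lower, 80 cytosolic ribosomal protein genes included 3 rises and 10 falls (median -0.03). The 80 nuclear genes of the respiratory chain and ATP synthase included 37 rises and 6 falls (median 0.15). By library size the cytosolic list became 1 higher (1.25%) and 46 lower (57.5%). The respiratory list became 17 higher (21.2%) and 22 lower (27.5%), beside 22.1% and 45.9% of all tested genes. These 2 lists were added after the data had been examined.

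The promoters of the members were searched for short motifs of factors known to act on such genes. RefSeq promoters (GRCm38.p6, 250 bases before to 50 bases after the start) were at hand for 69 of the 78 members and for 27025 genes in all. The ETS motif CCGGAAG, bound by GABP and its relatives, was present on either strand in 26 of 69 member promoters (37.7%), against 20% of the promoters of tested genes and 9.93% of all promoters. It was present in 36.8% of the members that rose and in 38.7% of the others. The NRF1 motif GCATGCGC was found in 11.6% of member, 5.91% of tested and 3.05% of all promoters, the E-box CACGTG in 7.25%, 11.7% and 8.09%, and the CCAAT box CCAAT in 39.1%, 43.1% and 41.1%. A match describes the letters in the window, not binding, and only the spellings given here were searched. The promoters of the 3 members with the largest rises and of the member with the largest fall are shown in the direction of transcription, with ETS and NRF1 motifs in capitals. Mrpl45 is chr11:97315466-97315765 (plus), Mrps18b chr17:35916391-35916690 (minus), Mrpl3 chr9:105053018-105053317 (plus) and Mrps25 chr6:92183974-92184273 (minus).
Mrpl45: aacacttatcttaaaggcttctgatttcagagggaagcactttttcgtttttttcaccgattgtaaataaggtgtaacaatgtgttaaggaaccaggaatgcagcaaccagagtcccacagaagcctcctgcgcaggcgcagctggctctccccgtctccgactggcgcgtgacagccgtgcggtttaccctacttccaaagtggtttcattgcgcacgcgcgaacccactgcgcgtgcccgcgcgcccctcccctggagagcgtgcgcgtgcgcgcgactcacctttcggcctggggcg
Mrps18b: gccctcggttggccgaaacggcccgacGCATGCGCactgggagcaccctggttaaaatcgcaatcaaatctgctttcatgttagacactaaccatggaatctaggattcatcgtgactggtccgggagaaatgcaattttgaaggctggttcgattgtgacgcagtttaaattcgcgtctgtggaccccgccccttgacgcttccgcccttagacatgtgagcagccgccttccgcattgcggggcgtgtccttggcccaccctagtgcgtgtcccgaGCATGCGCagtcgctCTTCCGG
Mrpl3: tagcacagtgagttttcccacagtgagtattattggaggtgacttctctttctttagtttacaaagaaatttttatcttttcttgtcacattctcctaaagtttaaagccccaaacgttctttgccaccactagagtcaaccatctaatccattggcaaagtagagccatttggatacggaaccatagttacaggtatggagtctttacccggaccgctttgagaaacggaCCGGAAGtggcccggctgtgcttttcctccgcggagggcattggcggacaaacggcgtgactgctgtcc
Mrps25: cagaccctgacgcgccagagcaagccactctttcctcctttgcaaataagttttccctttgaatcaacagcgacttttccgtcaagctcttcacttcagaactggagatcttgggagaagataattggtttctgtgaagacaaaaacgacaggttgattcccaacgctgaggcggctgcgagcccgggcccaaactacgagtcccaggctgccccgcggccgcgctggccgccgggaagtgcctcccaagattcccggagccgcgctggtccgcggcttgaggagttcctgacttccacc
Mrps18b holds 2 NRF1 motifs, at -223 and 28 from the start, and 1 ETS motif at 43, and Mrpl3 holds 1 ETS motif at -19. The window of Mrps25 holds neither motif. Nor does that of Mrpl45 in the spellings searched, and other spellings of the NRF1 motif were not looked for. RefSeq and GENCODE place the start of Mrpl45 differently, and its window lies wholly inside the gene as GENCODE gives it. The window therefore does not describe the sequence before the GENCODE start.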

How the data were processed

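RNA was taken from tdTomato+ cells sorted from BMSC cultures, and libraries were sequenced on a DNBSEQ platform. According to the study's methods, reads of rRNA and of low quality were removed and the rest mapped with HISAT2. The submitters' processing notes name HISAT2 2.0.4, Bowtie2 2.2.5, RSEM 1.2.12, DESeq2 1.4.5 and mm10. The annotation and the use of strand are not given in the sources used here. The authors deposited estimated counts per gene, of which 13.3 to 14.4% per library were not whole, and FPKM rounded to 2 decimals, both per library. A second deposited table with part of the FPKM and the authors' own log ratios and P values was not used.

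The estimated counts were first rounded, then filtered with edgeR's filterByExpr, scaled by TMM and tested with edgeR 4.0.16 (glmQLFit and glmQLFTest, R 4.3.3), 3 libraries against 3, with Benjamini-Hochberg adjustment over all 12701 genes. Genes were called at an adjusted p of at most 0.05, and past 2-fold where log2 fold change was also at least 1 in size. The script was tested on simulated data. The alternatives were RLE and library-size scaling, DESeq2 1.42.0, limma 3.58.1 on log2(FPKM + 1) and log2(FPKM + 0.1), no filter, a minimum of 10 counts in every library, removal of a length trend, a replicate block, placement of genes by structure and omission of each library in turn. A floor of 3 counts was 0.136 to 0.155 CPM per library, below every member's level. It covers counting error only. Libraries of 1 genotype differed by 2.44 to 5.86 times sampling noise, so no pair agreed within it.

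Genes named with values were the 8 members with the largest and the 8 with the smallest log2 fold change among those called, the 3 highest, the 3 lowest and the 3 nearest no change, genes of set roles, the extremes of each related list, and all ribosomal proteins under other names and all regulators. Mrpl27, Mrps10, Mrpl42, Mrpl23, Mrps31, Tefm, Mtpap and the markers of other cell types given singly fall outside this rule and were chosen after their values were seen. The members and lists were chosen with earlier results of these data known. Transcript length was computed as count over FPKM and total count. Gene positions and shared exon bases are from GENCODE M21 and promoters from RefSeq, both GRCm38, the build of mm10. Groups come from the genotype labels.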

Additional observations from a re-analysis of the deposited data

How the results depend on the processing

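The counts of calls moved with the scaling and the test. With library size only, 22 members were higher and 23 lower (large subunit 13 and 13, small subunit 9 and 10), and with limma on log2(FPKM + 0.1) or log2(FPKM + 1) there were 22 and 26 (13 and 15, 9 and 11), against 43 and 7 (28 and 3, 15 and 4). The medians were 0.054 (large) and 0.007 (small) with library size only, 0.040 and -0.002 with limma at 0.1, and 0.039 and -0.002 at 1, and the large-minus-small median was then 0.041 and 0.040. DESeq2 called 2 members lower (1 large, 1 small) and 2 past 2-fold, and removal of the length trend gave 5 large-subunit falls. Leaving out 1 library gave 33 to 44 members higher, 1 to 7 lower and 1 to 2 past 2-fold, 21 to 29 and 0 to 3 for the large subunit, 12 to 16 and 1 to 4 for the small, medians of 0.222 to 0.289 and 0.165 to 0.268, and 0.002 to 0.065 for their difference. Apart from the fits' own scaling, the cause was not tested.

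The sign turned in at least 1 alternative for 18 of the 78 members, 10 of them by library size alone, and only Mrpl27 and Mrps33 of these were called. Among the members tabulated under every alternative, Mrpl17 was -0.040 with library size only and -0.041 and -0.035 with limma, Mrpl27 -0.362 and -0.353 and Mrps33 -0.002 with limma. Mrpl49 was -0.023 without the length trend, -0.021 with the replicate block added, -0.201 with library size only and -0.196 and -0.186 with limma. Mrpl4 was 0.000 with DESeq2, and Mrpl41 0.008 with DESeq2 and 0.002 with RLE. Leaving out 1 library gave -0.086 to 0.029 for Mrpl4, -0.05 to 0.044 for Mrpl41, -0.057 to 0.085 for Mrpl49 and -0.122 to 0.03 for Mrps21.

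Of the 43 rises, 22 were called in every alternative and 33 in every fit that left out 1 library, and of the 7 falls 1 (Mrps25) in each. With the replicate block 42 members were higher and 6 lower. Deviations of libraries with the same number correlated at 0.0127, 0.00664 and 0.141, so the numbers were not taken as pairs.

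With 3 libraries per genotype the exact permutation test of a single level cannot go below p = 0.1. Shared exon bases, the sorted cells' mixed markers and the unknown number of mice limit every value.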
